A study of Mus musculus with 2 samples.

Results

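Pseudogenes whose symbols end in -ps, with or without a number after it, were followed in long-read RNA sequencing of the mouse heart. Members were all annotated genes with such a symbol and at least 1 read in either library, with reads of every class of transcript model counted. The GENCODE M21 annotation holds 1556 genes with such a symbol, and 124 of them (7.97%) were read, 99 in replicate 1 and 102 in replicate 2. They made up 124 of the 14514 annotated nuclear genes with a read. The series held 1 group of 2 libraries from heart tissue of male B6CASTF1/J mice, F1 hybrids of a B6 by CAST cross from The Jackson Laboratory, at an age of 2 months. Each library was made from 2 µg of RNA. The labels tied the libraries to separate animals, although a further field named a single animal for both, so p-values measure only the counting spread between these libraries. No treatment or second tissue was included, so each pseudogene was set against its parent gene, the gene of the same name without the suffix, and replicate 1 was set against replicate 2.

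A processed pseudogene, or retrocopy, arises when a messenger RNA is copied back into DNA and inserted elsewhere in the genome, so it lacks the introns of its parent. An unprocessed pseudogene arises by duplication of the gene itself and keeps exons and introns, and a unitary pseudogene is a gene that lost its function without leaving a working copy. Genes with abundant messenger RNA, ribosomal protein genes above all, are known for having many retrocopies. A read can be assigned to a retrocopy or to its parent only through the few bases at which they differ, through the introns of the parent or through flanking sequence. These animals also carry CAST alleles, whose differences from the reference genome at these bases were not examined, so their part in every split of reads between a pseudogene and its parent was not tested.

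Replicate 1 held 430251 reads of annotated nuclear genes and replicate 2 held 629896. Levels are given in CPM, counts per 1000000 of these reads, so that 1 read equals 2.32 CPM in replicate 1 and 1.59 in replicate 2. All 7 cardiomyocyte markers were read, with summed levels of 48316 CPM in replicate 1 and 40605 CPM in replicate 2. All 5 erythroid markers passed the test between the libraries, at 13799 CPM in replicate 1 and 3663 CPM in replicate 2, and the part of blood in the results below was not tested. In a piece of tissue, fewer cells of a type and less RNA per cell cannot be told apart.

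The sequences of a few members show how close they lie to their parents. They were taken from the GENCODE M21 transcripts, run 5′ to 3′, and are given in lower case with the bases that differ in capitals. Positions count from 1 at the first base of the parent's start codon, with the parent's base first. Rps19-ps6 and Rpl21-ps15 are shown because they had more reads than their parents, the genes of ribosomal proteins of the small and the large subunit. Rps19-ps6 spans the whole 438-base coding sequence of Rps19, with the substitutions C6T, T273C, G369A, G372A and C390T, and the stretch from base 339 to base 420 holds the last 3.
Rps19-ps6: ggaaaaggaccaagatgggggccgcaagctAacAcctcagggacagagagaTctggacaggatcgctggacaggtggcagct
Rps19: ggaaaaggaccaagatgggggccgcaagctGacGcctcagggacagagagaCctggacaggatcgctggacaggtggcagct
Rpl21-ps15 spans the 483-base coding sequence of Rpl21, with the substitutions T336C, G378A and T432C, all held by the stretch from base 306 to base 462.
Rpl21-ps15: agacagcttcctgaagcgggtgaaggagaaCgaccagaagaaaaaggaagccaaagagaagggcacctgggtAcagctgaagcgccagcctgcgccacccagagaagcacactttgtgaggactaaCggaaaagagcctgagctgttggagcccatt
Rpl21: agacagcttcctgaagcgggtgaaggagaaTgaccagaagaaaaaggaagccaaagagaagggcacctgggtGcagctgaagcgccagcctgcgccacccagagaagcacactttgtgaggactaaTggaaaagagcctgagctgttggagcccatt
All 8 substitutions in these 2 pairs fall on the third base of a codon, and both pseudogenes keep an open reading frame as long as that of the parent.

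Mpc1-ps and Oaz1-ps are shown because they differed most between the libraries. The parent of Mpc1-ps, Mpc1, encodes a subunit of the carrier that brings pyruvate into mitochondria. The 330-base annotated model of the retrocopy differs at 1 base, G41A, the second base of a codon. Sequence beyond this model, described below, was not compared. The stretch from base 11 to base 71 holds the difference.
Mpc1-ps: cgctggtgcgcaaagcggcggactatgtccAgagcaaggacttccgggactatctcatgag
Mpc1: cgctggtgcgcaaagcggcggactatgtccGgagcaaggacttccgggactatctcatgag
The parent of Oaz1-ps, Oaz1, encodes antizyme, which marks ornithine decarboxylase for degradation and is made through a programmed frameshift of the ribosome. Against the annotated transcript of Oaz1, the annotated model of Oaz1-ps has the substitution G125C and 1 further base after base 204. The further base is shown in the stretch from base 175 to base 234.
Oaz1-ps: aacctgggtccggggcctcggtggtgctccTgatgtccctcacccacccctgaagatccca
Oaz1: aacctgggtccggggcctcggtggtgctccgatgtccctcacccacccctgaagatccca
At the matching place 3 annotated transcript models of Oaz1 leave out a single genomic base, chr10:80828295-80828295 of mm10. Another model leaves out 4 bases, from 80828292 to 80828295. The further base is thus a difference from the annotated models. The Oaz1 gene has a base there that these models skip, and whether it is the same base as in Oaz1-ps was not tested. The longest open reading frame of Oaz1-ps starts at base 1 and ends with the tga at bases 205 to 207, whose first letter is the capital.
The open reading frame of Ndufb1-ps, the most read member, is 174 bases long and is given with its start and stop codon in capitals.
Ndufb1-ps: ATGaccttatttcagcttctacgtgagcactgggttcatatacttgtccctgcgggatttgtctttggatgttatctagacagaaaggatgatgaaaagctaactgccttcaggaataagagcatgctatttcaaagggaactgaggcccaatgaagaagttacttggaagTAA

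The members together had 1521 reads in replicate 1 and 1940 in replicate 2, or summed levels of 3535 CPM and 3080 CPM (3308 ± 322 CPM, SD, n = 2 libraries). That is 0.354% of the reads of annotated nuclear genes in replicate 1 and 0.308% in replicate 2. The ratio of the summed levels, replicate 1 over replicate 2, was 1.15 (95% interval 1.07 to 1.23, counting error only), and without Mpc1-ps and Oaz1-ps it was 0.998. With ERCC spike-in reads as the scale it was 0.956. The reads were unevenly spread: the 5 most read members held 50.2% of the members' reads in replicate 1 and 45.2% in replicate 2. Both libraries had reads for 77 members. Among the 22 members read in replicate 1 alone, Mpc1-ps had 155 reads and none of the others more than 3, and among the 25 read in replicate 2 alone none had more than 5. The matching counts for all annotated nuclear genes are not given, so these describe the members only. At least 10 summed reads were found for 44 members (the plot of levels by library), and the other 80 had a median of 2, with 29 of them at a single read.

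**Figure D1:**
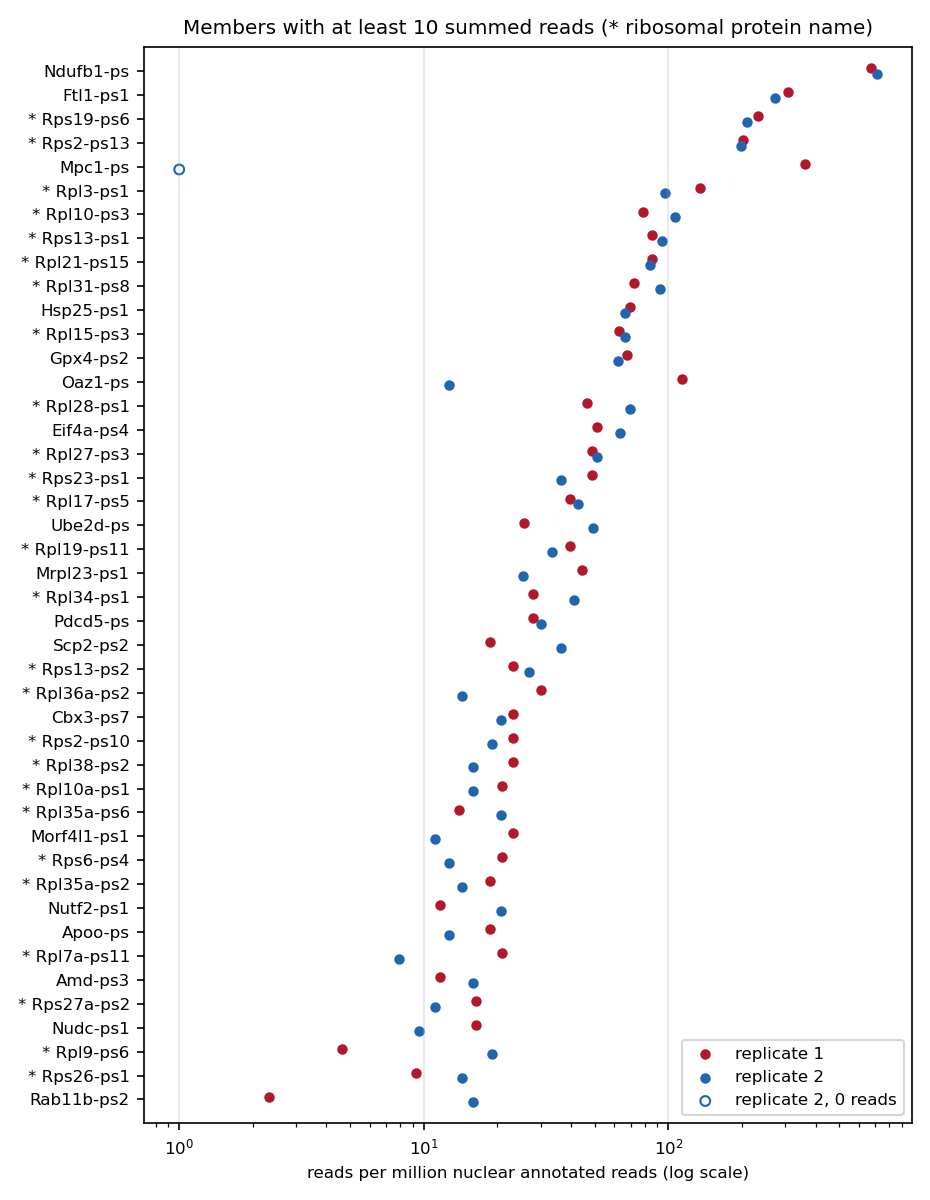
Level of each of the 44 members with at least 10 summed reads, in CPM of nuclear annotated reads on a log axis; a point is 1 library, replicate 1 red and replicate 2 blue, and an open point at the left marks 0 reads. Most pairs of points lie close together, whereas Mpc1-ps had 360.3 CPM in replicate 1 and no read in replicate 2, and Oaz1-ps had 114 CPM in replicate 1 and 12.7 CPM in replicate 2.

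Symbols of cytosolic ribosomal proteins made up 63 of the 124 members and 26 of the 44 with at least 10 reads. They summed to 1550 CPM in replicate 1 and 1522 CPM in replicate 2 (1536 ± 19.6), while the other 61 members summed to 1985 CPM in replicate 1 and 1557 CPM in replicate 2. Of the annotated genes with the suffix, 63 of 300 with a ribosomal protein symbol were read and 61 of 1256 others (4.86%). By biotype, 104 of the 682 processed pseudogenes with the suffix were read (15.2%), counting the transcribed ones. Of the unprocessed ones only 3 of 659 were read (0.455%), not counting those listed as transcribed, of which 6 of 81 were read (7.41%). Among processed pseudogenes whose names lack the suffix, 330 of 9555 were read (3.45%). They held 4292 reads in replicate 1 and 6437 in replicate 2, against 1025 and 1148 for the processed ones with the suffix. The values on either side of the minimum of 10 reads were 11 for Rab11b-ps2 just inside it and 9 just below it.

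The highest ribosomal member was Rps19-ps6 (chr12:110898114-110898551 of mm10, plus strand), which had 100 reads in replicate 1 and 132 in replicate 2 (221 ± 16.2 CPM). Its parent Rps19 had 72 reads in replicate 1 and 111 in replicate 2. The pseudogene lies in the span of Tecpr2 on the same strand, a gene with no read in either library. Rps2-ps13, a copy of a small-subunit protein gene on the X chromosome (chrX:52898588-52899469, plus strand), had 87 reads in replicate 1 and 125 in replicate 2, against 51 and 80 for Rps2. Rpl3-ps1, also on X, had 58 reads in replicate 1 and 61 in replicate 2, against 76 and 128 for Rpl3, and it keeps an open reading frame of only 186 of its 1210 bases. In these 3 pairs the pseudogene stood above the parent in both libraries for Rps19-ps6 and Rps2-ps13 and below it in both for Rpl3-ps1.

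In 3 further pairs ribosomal members took most reads. Rpl10-ps3, which the annotation lists as protein-coding and RefSeq as a pseudogene, had 34 reads in replicate 1 and 67 in replicate 2, against 3 and 4 for Rpl10, the X-linked parent. Rpl21-ps15 had 37 and 53 reads, against 5 and 5 for Rpl21. Rpl17-ps5 had 17 and 27 reads, against 0 and 7 for Rpl17. In all 3 pairs, then, the parent had single-digit reads in each library and the pseudogene at least 17.

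Pairs in which both copies were well read followed. Rps13-ps1 had 37 reads in replicate 1 and 59 in replicate 2, and its sister copy Rps13-ps2 had 10 and 17, against 51 and 66 for Rps13. Rpl31-ps8 had 31 and 58 reads, against 22 and 54 for Rpl31, and Rpl15-ps3 had 27 and 42 reads, against 41 and 72 for Rpl15. Rpl28-ps1 had 20 and 44 reads, against 62 and 93 for Rpl28. None of Rpl31-ps8, Rpl15-ps3 and Rpl28-ps1 differs from its parent over the part that aligned. Rpl27-ps3 had 21 and 32 reads, against 26 and 53 for Rpl27, and Rps23-ps1 had 21 and 23 reads, against 27 and 50 for Rps23. Rpl19-ps11 had 17 and 21 reads, against 84 and 134 for Rpl19, and Rpl34-ps1, which RefSeq lists as protein-coding, had 12 and 26 reads, against 39 and 69 for Rpl34. The parent was the more read copy in both libraries in each of these pairs except that of Rpl31.

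Of the members named after mitochondrial proteins, Ndufb1-ps led by far. NDUFB1 is an accessory subunit of complex I of the respiratory chain. Ndufb1-ps (chr12:101968090-101977068, minus strand) had 289 reads in replicate 1 and 449 in replicate 2 (692 ± 29.1 CPM). The annotation holds no gene called Ndufb1, lists Ndufb1-ps as a non-coding RNA of a bidirectional promoter, and gives its main transcript 3 exons; RefSeq lists a protein-coding gene Ndufb1 at chr12:101968096-101975738. The 3-exon transcripts of 861 and 511 bases had 245 and 38 reads in replicate 1 and 362 and 68 reads in replicate 2, and all other reads were spliced as well. By structure it therefore stood apart from the processed members, whose reads came from single exons except for 2 of 1025 in replicate 1 and 3 of 1148 in replicate 2.

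Further members had fewer reads than Ndufb1-ps, Mrpl23-ps1 and Apoo-ps with mitochondrial names among them, and Mpc1-ps is described below. Mrpl23-ps1, a copy of the gene of a mitochondrial ribosomal protein, had 19 reads in replicate 1 and 16 in replicate 2, against 34 and 56 for Mrpl23. Apoo-ps, a copy of the gene of a protein of the inner membrane complex that shapes cristae, had 8 and 8 reads, against 68 and 107 for Apoo. Scp2-ps2, a copy of the sterol carrier protein gene, had 8 and 23 reads, against 229 and 302 for Scp2. The annotation lists Scp2-ps2 as a transcribed unprocessed pseudogene, but its reads were all unspliced. Mrpl23-ps1, Apoo-ps and Scp2-ps2 all stood below their parents in both libraries.

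Iron and peroxide handling contributed 2 well-read members. Ftl1-ps1, named after the ferritin light chain that stores iron (chr13:74399694-74407346, plus strand), had 132 reads in replicate 1 and 171 in replicate 2, or 307 and 271 CPM, against 137 and 159 for Ftl1. The annotation lists Ftl1-ps1 as protein-coding and RefSeq lists it as a pseudogene. All of its reads belonged to a 938-base single-exon transcript. This transcript aligned with Ftl1 over 910 bases with 4 mismatches, and the pair shared the reads almost evenly in both libraries. Gpx4-ps2, named after the peroxidase that repairs lipid hydroperoxides, had 29 and 39 reads, against 372 and 472 for Gpx4. Its level was thus far below that of its parent in both libraries.

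Among the rest, 4 members with many reads had names of stress, translation or ubiquitin genes. Hsp25-ps1 had 30 reads in replicate 1 and 42 in replicate 2; no gene bears its name without the suffix, and the coding gene closest in sequence was Hspb1, a small heat shock protein gene, with 99.4% identity over 630 bases and 111 and 116 reads. Eif4a-ps4 had 22 and 40 reads; its closest coding gene was Eif4a1, an RNA helicase of translation initiation, with 36 and 50 reads. Pdcd5-ps, a copy of the programmed cell death gene Pdcd5, had 12 and 19 reads, against 40 and 66 for Pdcd5. Ube2d-ps, a transcribed unprocessed pseudogene, had 11 and 31 reads, all of them spliced. Its closest coding gene, the ubiquitin-conjugating enzyme gene Ube2d1, matched over only 108 bases. The remaining 19 members with at least 10 reads ranged from 9.10 to 25.1 CPM on average. Apart from those named, they were copies of further ribosomal protein genes and of Cbx3, Morf4l1, Nutf2, Nudc, Rab11b and Amd1.

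Set against their parents, most members held the smaller share of the reads (the plot of shares). The share compares reads per gene, with 1 read standing for 1 transcript whatever its length. Of the 44 members, 39 had a parent of the same name, and the median share of the pseudogene in the reads of the pair was 23.5% in replicate 1 and 20.5% in replicate 2. The share was above 50% in both libraries for 6 members: Rps19-ps6, Rps2-ps13, Rpl10-ps3, Rpl21-ps15, Rpl31-ps8 and Rpl17-ps5. Its exact 95% interval, which covers counting error only, lay wholly above 50% in both libraries for 4 of them, all but Rps19-ps6 and Rpl31-ps8, and wholly below 50% in both for 23 members. Rps19-ps6 held 58.1% (50.4 to 65.6) in replicate 1 and 54.3% (47.8 to 60.7) in replicate 2. Rps2-ps13 held 63.0% (54.4 to 71.1) in replicate 1 and 61.0% (53.9 to 67.7) in replicate 2. Rpl10-ps3 held 91.9% (78.1 to 98.3) in replicate 1 and 94.4% (86.2 to 98.4) in replicate 2. Under 10% in both libraries were 8 members, among them Gpx4-ps2 with 7.23% in replicate 1 and 7.63% in replicate 2. The intervals of the 2 libraries overlapped for 37 of the 39 members, the exceptions being Mpc1-ps and Oaz1-ps.

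**Figure D2:**
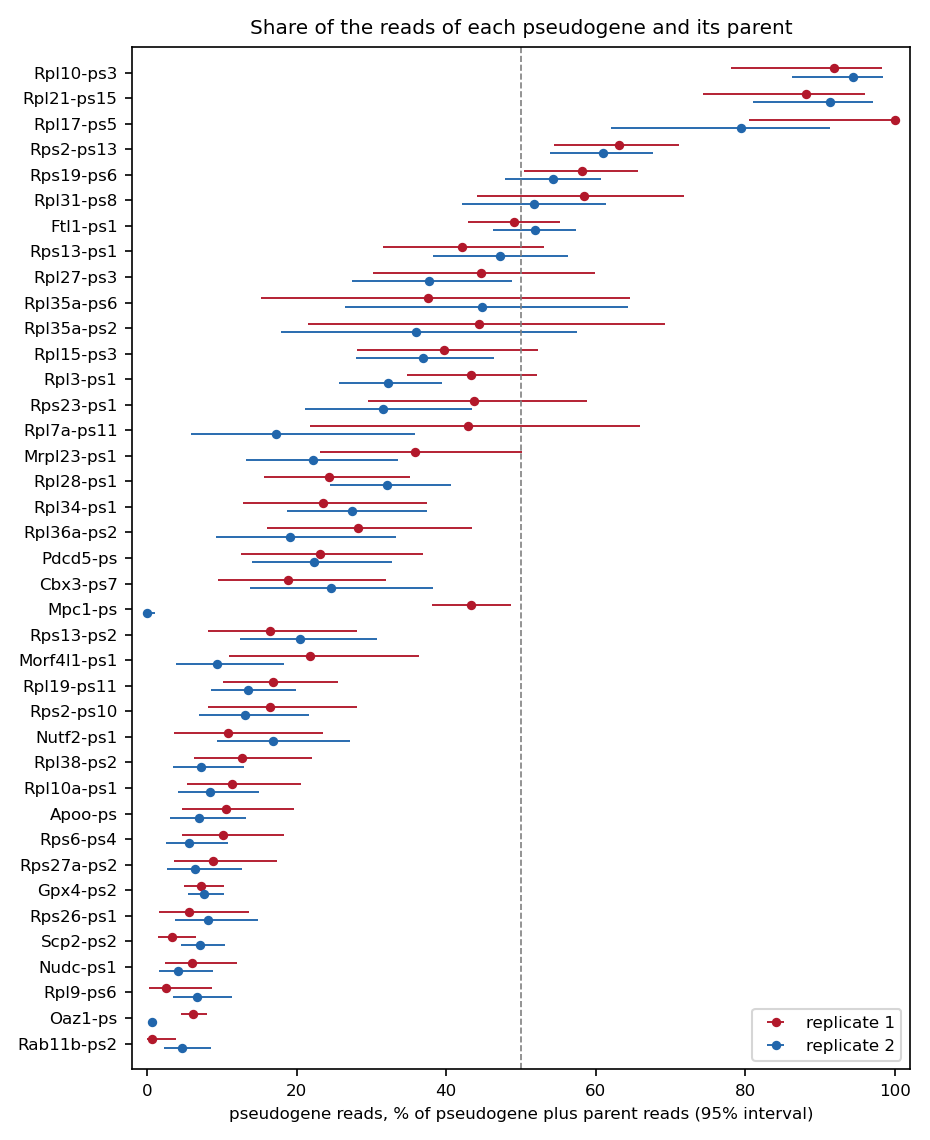
Reads of the pseudogene as a percentage of the reads of pseudogene plus parent for the 39 members with a parent of the same name; points are single libraries (replicate 1 red, replicate 2 blue), bars are exact 95% intervals and the dashed line is at 50%. Rpl10-ps3, Rpl21-ps15 and Rpl17-ps5 lie far to the right in both libraries, and only for Mpc1-ps and Oaz1-ps do the bars of the 2 libraries not overlap.

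For 11 parents more than 1 copy was read and the copies together had at least 10 summed reads. The copies summed held over 50% in both libraries for 4 of these parents, Rps2, Rpl35a, Rpl17 and Rps19. Copies whose names lack the suffix were not counted here. The 5 read copies of Rps2 together had 101 reads in replicate 1 and 137 in replicate 2. That is 66.4% (58.3 to 73.9) and 63.1% (56.3 to 69.6) of the reads of these copies and Rps2. The 5 copies of Rpl35a, each with a smaller count than those above, had 19 and 34 reads, against 10 and 16 for Rpl35a, or 65.5% (45.7 to 82.1) in replicate 1 and 68.0% (53.3 to 80.5) in replicate 2. The 4 copies of Rpl17 had 23 and 37 reads, against 0 and 7 for Rpl17. The 2 copies of Rps13 had 47 and 76 reads, against 51 and 66 for Rps13, so their share was near 50% in both libraries. The lowest share was that of the 2 copies of Rpl36, at 13.6% in replicate 1 and 5.56% in replicate 2, followed by those of Rpl19 at 16.8% and 14.1%. The copies of Cbx3, a chromatin protein gene, held 24.6% in replicate 1 and 25.9% in replicate 2, those of Rpl36a 28.3% and 22.4%, those of Rpl3 43.7% and 32.3%, and those of Rps12, with few reads, 50% and 32%.

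Between the libraries, few members differed. A gene was called when an exact two-sided binomial test on its reads, adjusted with the Benjamini-Hochberg method over the 8086 nuclear genes with at least 10 summed reads, gave an adjusted p under 0.05 and the levels differed at least 2-fold. Among the 44 members 2 were called, Mpc1-ps and Oaz1-ps, beside 26 of all 8086 genes (0.322%). At an unadjusted p under 0.05 there were 3 of 44 members and 575 of 8086 genes (7.11%), the third member being Rab11b-ps2. The median log2 ratio, replicate 1 over replicate 2, was 0.054 for the 44 members, with 24 higher and 20 lower in replicate 1, and 0.011 for all genes tested. For the 34 parents that were tested the median log2 ratio was -0.097, and none was called. Leaving out the 2 called members, 37 of the other 42 lay within 2-fold, and their log2 ratios ran from -2.26 to 1.34 (the scatter of both libraries). The share of all tested genes within 2-fold is not given, so this too describes the members only.

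**Figure D3:**
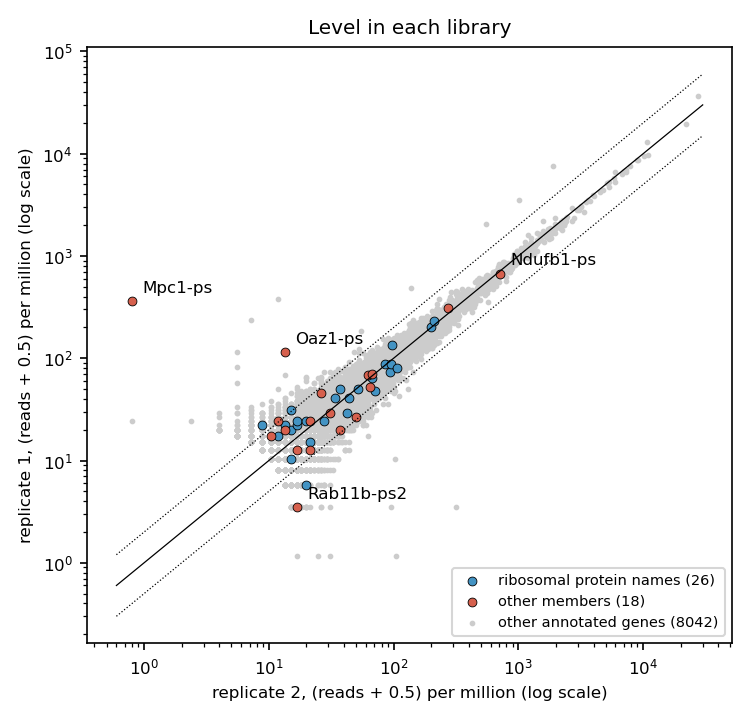
Level (CPM, after adding 0.5 reads) in replicate 1 (vertical) against replicate 2 (horizontal), both on log axes, for the 26 ribosomal protein members (blue), the 18 other members (red) and the other annotated nuclear genes with at least 10 summed reads (grey); the solid line marks equality and the dotted lines a 2-fold difference. Mpc1-ps and Oaz1-ps lie above the upper dotted line, Rab11b-ps2 lies below the lower one, and most members lie between them.

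Mpc1-ps (chr12:110858565-110858894, minus strand) had 155 reads in replicate 1 and 0 in replicate 2. Set against the 3 reads that a count of 0 allows, its level in replicate 1 was 75.6-fold higher, and the exact 95% interval of the ratio, which takes in the counting error of both libraries, began at 60.8 (Benjamini-Hochberg adjusted p = 3.2e-58, exact binomial test). Mpc1 itself had 203 reads in replicate 1 and 334 in replicate 2, so the pseudogene's share of the pair was 43.3% (38.1 to 48.6) in replicate 1 and 0% (0 to 1.10) in replicate 2. The carrier genes Mpc1 and Mpc2 summed to 990.1 CPM in replicate 1 and 1081 CPM in replicate 2, and neither was called. Only 2 reads of Mpc1 in replicate 1 and 4 in replicate 2 belonged to known transcripts, whereas 197 and 326 belonged to combinations of known splice sites that the annotation does not list.

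A model of another name continued Mpc1-ps at its 3′ end. In both libraries a single-exon model of an unnamed locus on the same strand began at the last annotated base of Mpc1-ps, at 110858565, and ran on to 110858070 in replicate 1 and to 110858069 in replicate 2. RefSeq places the end of the pseudogene at 110858070. This model had 72 reads in replicate 1 and 386 in replicate 2. Mpc1-ps and the adjoining model together had 227 reads in replicate 1 and 386 in replicate 2, an exact binomial log2 ratio of -0.21 with an unadjusted p of 0.0769 and an adjusted p of 0.785. The sum of both models was thus not called, and its log2 ratio had the opposite sign to that of the annotated part. Counted with the adjoining model, the pseudogene held 52.8% of the reads of the pair in replicate 1 and 53.6% in replicate 2.

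Oaz1-ps (chr17:17345456-17346140, minus strand) had 49 reads in replicate 1 and 8 in replicate 2, a level 8.97-fold higher in replicate 1 (95% interval 4.21 to 21.9, Benjamini-Hochberg adjusted p = 1.0e-09, exact binomial test). Oaz1 had 749 reads in replicate 1 and 1171 in replicate 2, and the pseudogene's share of the pair was 6.14% in replicate 1 and 0.679% in replicate 2. Of the 6 genes of the antizyme list 5 were read, they summed to 2206 CPM in replicate 1 and 2435 CPM in replicate 2, and none was called. Known transcripts of Oaz1 had no read in either library; 738 of its reads in replicate 1 and 1157 in replicate 2 belonged to unlisted combinations of known splice sites. The same held for its relative Oaz2, with 0 known reads and 148 and 293 of this class. As described above, annotated models of Oaz1 leave out 1 or 4 genomic bases. The part of these gaps in the class given to reads of Oaz1 was not tested, so the class need not mean unlisted splicing.

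The non-coding gene AC154200.1 spans Oaz1-ps on the same strand of chromosome 17. It had 0 reads in replicate 1 and 65 in replicate 2, all in a single-exon model that shares the last base of Oaz1-ps, at 17345456, and ends at 17345177. It was itself called, lower in replicate 1 (Benjamini-Hochberg adjusted p = 1.5e-12, exact binomial test). Oaz1-ps with this model had 49 reads in replicate 1 and 73 in replicate 2, an exact log2 ratio of -0.020 with an adjusted p of 1. RefSeq draws the pseudogene longer, from 17345242 to 17346204, so that most of the adjoining model falls within it.

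Rab11b-ps2 and Got2-ps1 also adjoined such models, at smaller counts (the plot of adjoining models). Rab11b-ps2, a copy of the gene of a small GTPase of endosome recycling, had 1 read in replicate 1 and 10 in replicate 2 (exact p = 0.0344, adjusted p = 0.636). An unnamed locus that shares its last base had 6 reads in replicate 1 and 0 in replicate 2, and the sums were 7 reads in replicate 1 and 10 in replicate 2. Got2-ps1, a copy of the mitochondrial aspartate aminotransferase gene that was chosen after its values were seen, had 3 reads in replicate 1 and 2 in replicate 2. A model sharing its last base had 29 reads in replicate 1 and 0 in replicate 2, while same-strand models within 1000 bases together had 29 reads in replicate 1 and 45 in replicate 2. In all, 13 of the 124 members had a same-strand model that shared an end base with them. Among members annotated with single exons there were 12 of 109, against 45 of 765 other single-exon genes with a read, a difference that was not tested. The models of the 13 members held 115 reads in replicate 1 and 467 in replicate 2, of which 111 and 462 lay on the 3′ side.

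**Figure D4:**
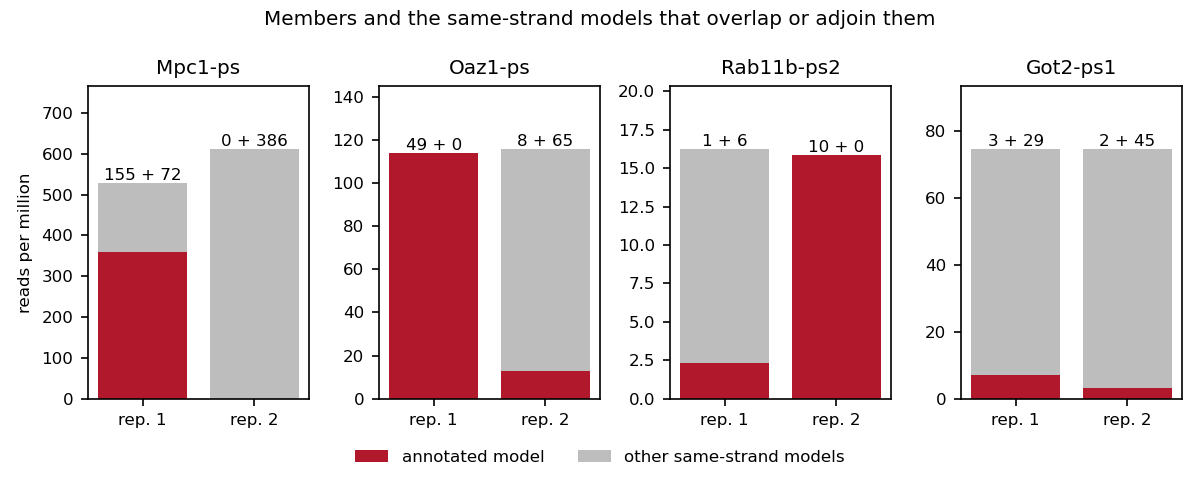
Level (CPM) of 4 members (red) and of all other same-strand models that overlap them or lie within 1000 bases (grey), stacked, for replicate 1 and replicate 2; the labels on the bars give reads of the member plus reads of the other models, and each panel has its own axis from 0. The red parts differ between the libraries in the first 3 panels, while the full bars stood at 528 CPM in replicate 1 and 613 CPM in replicate 2 for Mpc1-ps and at 114 CPM and 116 CPM for Oaz1-ps.

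The reads of members fell into known, unspliced models far more than those of other genes. As 109 of the 124 members are annotated with single exons, this partly restates the annotation. Known transcripts held 98.7% of members' reads in replicate 1 and 97.2% in replicate 2. The shares were 80.7% and 80.6% for the parents and 75.7% and 75.6% for all annotated nuclear genes. Unlisted combinations of known splice sites held 980 of the parents' reads in replicate 1 and 1557 in replicate 2. Oaz1 alone had 738 and 1157 of these, and Mpc1 had 197 and 326. Single-exon models held 79.6% of members' reads in replicate 1 and 74.5% in replicate 2. The shares were 2.65% and 2.29% for the parents and 9.19% and 9.64% for all annotated nuclear genes. For the processed members alone the single-exon share was 99.8% in replicate 1 and 99.7% in replicate 2. Spliced reads were found for 16 members, with 311 reads in replicate 1 and 495 in replicate 2, of which Ndufb1-ps and Ube2d-ps held nearly all. The others had at most 3 spliced reads in a library. Ppp4r1l-ps had 2 spliced reads in replicate 1 and 2 in replicate 2, and H2-Ea-ps, named after an MHC class II chain, had 2 and 1.

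Read and unread processed pseudogenes differed in their likeness to the parent. The identity over the aligned part had a median of 99.4% for 94 read members and of 93.9% for 482 unread pseudogenes with the suffix (the plot by identity). At 99% or more, 68 of 104 had a read (65.4%), between 97% and 99% 18 of 124 (14.5%), between 90% and 95% 2 of 140 (1.43%), and under 90% 2 of 138 (1.45%). Where the parent had at least 100 summed reads, 38 of 50 pseudogenes of 99% identity or more were read, against 2 of 146 under 95%. Conversely, 36 pseudogenes of 99% identity or more had no read, and the parents of 3 of these were unread too.

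**Figure D5:**
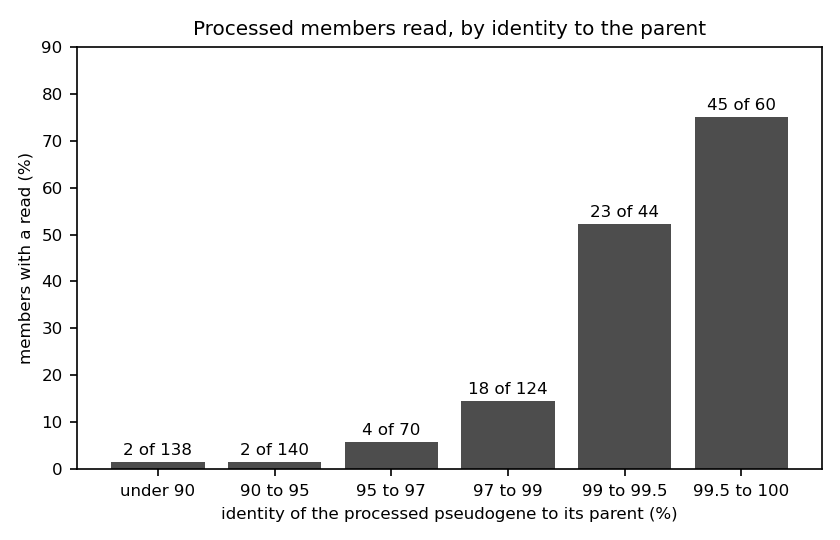
Percentage of processed pseudogenes with the suffix that had at least 1 read in either library (vertical axis, from 0), by the identity of their transcript to the parent over the aligned part (horizontal axis, percent); the counts stand above the bars. The bar is highest, at 45 of 60, for the highest identities.

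Of the 44 members with at least 10 reads, 39 aligned with their parent, at 98.9% identity or more with a median of 99.8%. There were 15 with no difference over the aligned part, and no member had more than 7 mismatches. An open reading frame of at least 95% of the parent's coding length was kept by 27. The identical copies held a median share of 24.4% in replicate 1 and 22.2% in replicate 2, and the copies with differences 22.6% in replicate 1 and 15.4% in replicate 2. The split of reads between copies that do not differ rests on how the authors assigned them, which was not tested.

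The differences that did exist lay at particular places in the codons. Among members with at least 10 reads, at least 98% identity and no gap, 36 could be compared with the parent's coding sequence, and 43 of their 47 coding differences (91.5%) lay on the third base of a codon, with 4 on the second and 0 on the first. Of the 21 members with a coding difference, 17 had all of theirs on the third base. The 45 members with fewer reads had 82 of 133 differences on the third base (61.7%), and 80 unread pseudogenes of the same identity had 267 of 491 (54.4%). With a minimum of 99% identity the shares were 90.5% for the well-read members, 64.2% for those with fewer reads and 56.8% for the unread pseudogenes. Bases of a gene and copies of a parent are not independent of each other, so these shares are given as a description without a test.

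Members lay mostly outside other genes. Of the 124, 16 lay in the span of another gene on the same strand, 27 in the span of a gene on the opposite strand, and 81 in neither, while 8 lay on the X chromosome. RefSeq, matched by symbol and place, held 123 of them and listed 4 as protein-coding: Ndufb1-ps, Rpl34-ps1, Tmem250-ps and Tma7-ps. The GENCODE annotation listed 6 of the 124 as protein-coding, with 176 reads in replicate 1 and 267 in replicate 2.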

How the data were processed

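The deposited tables held raw read counts of transcript models, which the authors neither normalized nor pooled across the libraries. Reads were aligned to mm10 and compared with GENCODE M21, per text files deposited with the tables, and the deposited annotation files name TALON, which assigns long reads to models. The aligner, its version, and the handling of strand and of reads that fit several copies are not given in the sources used here. Values of near-identical, overlapping and antisense genes are therefore uncertain. Exon numbers and lengths describe models, per the file headers.

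Counts of all model classes were summed per gene and divided by the reads of annotated nuclear genes (CPM). A series of 1 group has no replicated contrast, so the libraries were compared per gene by an exact two-sided binomial test (SciPy 1.17.1), with Benjamini-Hochberg adjustment over nuclear genes with at least 10 summed reads; log2 ratios add 0.5 reads. This test covers counting error only, and PCR copies of a molecule cannot be told apart. The test was also run on simulated counts that held counting error only. Such counts cannot show how it fares where libraries differ by more than that. Shares have Clopper-Pearson 95% intervals. Pseudogene transcripts were aligned to coding transcripts with BLAST 2.17.0 (e-value limit 1e-05), TMM factors came from edgeR 4.0.16, and RefSeq spans are those of GRCm38.

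Members and lists were chosen with earlier results of these data known. Members with at least 10 summed reads could be named with their reads and parents, in full the 25 with the highest mean CPM and every called member, and members with fewer than 10 reads only where they held a spliced model, apart from Got2-ps1 and Tma7-ps, named after their values were seen.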

Additional observations from a re-analysis of the deposited data

How the results depend on the processing

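No paired analysis was possible because the series holds 1 group of 2 libraries and no contrast between groups. The number of called members was 2 under known transcripts alone, all but genomic models, all mouse reads as denominator, TMM-scaled library sizes, ERCC scaling, no minimum of reads, a minimum of 50 reads and no fold threshold, and these were Mpc1-ps and Oaz1-ps each time. It was 0 once same-strand models within 1000 bases were added and 1, Got2-ps1, once only models sharing an end base were added. That alternative and those without named members were chosen after seeing the data. Both additions of models gave log2 ratios of -0.21 for Mpc1-ps and -0.020 for Oaz1-ps, against 8.83 and 3.09 for the members alone. Over all genes, the 26 calls became 67 with ERCC scaling, 56 with no fold threshold and 15 with known transcripts alone. Of the 308 member ratios recomputed, 304 kept their side of the threshold and, where called, their direction, and the other 4 are these.

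The summed level of 3308 CPM was 4286 CPM with known transcripts alone, where the total shrinks more than the members' reads, and 2615 CPM without Ndufb1-ps. It ran from 3080 to 3535 CPM with 1 library left out, and other denominators and the removal of genomic models gave 3182 to 3456 CPM. The ratio of the summed levels, replicate 1 over replicate 2, was 1.15, but 0.956 with ERCC scaling, which shifts every log2 ratio by -0.26, and 0.998 without Mpc1-ps and Oaz1-ps, so its direction rests on that choice. The median share of the pseudogene, averaged over the libraries, became 25.4% with known transcripts alone (the cause was not tested) and ran from 20.5% to 23.5% with 1 library left out. Members above 50% numbered 6 and ran from 6 to 7. With known transcripts alone the added member was Oaz1-ps, whose parent had no read of a known transcript. This count was not taken with adjoining models added, with which Mpc1-ps held over 50% in both libraries. Members with at least 10 reads numbered 44 and ran from 30 to 33 in a single library. Depth limits the 80 members under 10 reads, for which a read in 1 library alone is within the 3 reads that a count of 0 allows or close to it.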
